A study of Mus musculus with 8 samples.

Results

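Described here are 10 genes of the Wnt pathway, chosen by name: the ligand genes Wnt4, Wnt5a and Wnt7b, the secreted antagonist genes Sfrp1, Sfrp2 and Dkk3, the co-receptor genes Lrp5 and Lrp6, the transcription factor gene Tcf7l2 and the target gene Axin2. All 10 were found among the 19938 genes with a transcript cluster (a probe set for 1 transcript region) annotated to exactly 1 symbol. RNA was hybridised to 8 Affymetrix Mouse Gene 1.0 ST arrays. The samples came from primary mammary tumors under 1.0 cm in diameter, in FvB mice with the MMTV-Neu genotype. In this model the MMTV promoter drives the Neu oncogene in mammary epithelium. The labels give no ages and no other alleles. Each tumor was dissociated and sorted into a fraction enriched for tumor-initiating cells (TIC) and a CD24- fraction, with 4 arrays of each. Tumors N251, N260 and N283 gave a pair of arrays each, and N222 and N229, combined before sorting, gave the fourth pair, called the pool below. All groups share the tumor genotype, and no treated animals or normal mammary samples were among them.

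Wnt proteins are secreted lipid-modified ligands that bind Frizzled receptors together with the co-receptors LRP5 or LRP6. Binding halts the destruction of beta-catenin by a complex built on axin, and beta-catenin then acts in the nucleus with TCF/LEF factors on target genes such as Axin2, itself a feedback inhibitor. Some Wnts, Wnt5a among them, act largely without beta-catenin. In the mammary gland Wnt4 is known as a relay of progesterone signalling and the pathway supports basal stem cells, and Wnt1 was first found as a gene activated by the MMTV virus.

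Promoter sequence bears on the TCF/LEF end of the pathway, where Axin2 is a classical target and Tcf7l2 encodes one of the factors. RefSeq windows (GRCm38.p6) were matched for 4 of the 10 genes, Sfrp2, Wnt4, Axin2 and Tcf7l2, in 5 windows of 250 bases before a listed start, Tcf7l2 having 2. They were searched on both strands for CTTTG, the core of the site that TCF/LEF factors bind. The core was present in 2 of the 5 windows, both of Tcf7l2, and in 48.6% of 32851 windows of that length over all genes. The Axin2 window, chr11:108920099-108920348, and the 2 Tcf7l2 windows, chr19:55741560-55741809 and chr19:55895071-55895320, are all on the plus strand and are shown 5′ to 3′ with the core, or its reverse complement CAAAG, in capitals. The Axin2 window, the second Tcf7l2 window and the last bases of the first lie inside the RefSeq span of their genes, which begins further upstream.
Axin2: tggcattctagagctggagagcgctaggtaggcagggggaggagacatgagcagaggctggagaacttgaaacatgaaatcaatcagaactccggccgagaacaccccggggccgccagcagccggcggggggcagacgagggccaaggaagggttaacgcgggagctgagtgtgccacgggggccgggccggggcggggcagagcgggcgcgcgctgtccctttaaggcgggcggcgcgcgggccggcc
Tcf7l2, first start: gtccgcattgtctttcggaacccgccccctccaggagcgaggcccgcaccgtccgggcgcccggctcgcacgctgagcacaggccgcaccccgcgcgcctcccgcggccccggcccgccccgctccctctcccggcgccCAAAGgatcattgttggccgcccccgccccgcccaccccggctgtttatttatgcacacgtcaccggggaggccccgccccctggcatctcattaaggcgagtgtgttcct
Tcf7l2, second start: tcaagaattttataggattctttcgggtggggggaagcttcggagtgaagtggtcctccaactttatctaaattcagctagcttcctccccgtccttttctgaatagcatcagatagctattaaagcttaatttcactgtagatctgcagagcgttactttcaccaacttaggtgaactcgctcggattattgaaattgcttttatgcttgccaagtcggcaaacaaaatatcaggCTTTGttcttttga
The core ended 106 bases before the first Tcf7l2 start, as CAAAG, and 9 bases before the second. A match describes letters in a window, and binding was not measured.

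The fractions differed in leukocyte and macrophage markers. The mean log2 intensity of 10 pan-leukocyte markers was 6.75 to 6.997 on the TIC arrays and 8.95 to 11.54 on the CD24- arrays, and 6 of the 10 fell in the TIC fraction, where 0.742% of all genes did. All 10 macrophage markers fell, and 1 of 7 measured T cell markers (Cd3g). Of 10 fibroblast and 10 endothelial markers 0 were called, beside 0.792% of all genes. On average 9 of the fibroblast markers were lower in the TIC fraction, 7 of them in all 4 tumors. Of the endothelial markers 7 were lower, 4 of them in all 4 tumors, as were 11.8% of all genes. Of 9 measured luminal epithelial markers 0 were called, beside 0.792% of all genes. Each of the 9 was higher in the TIC fraction on average, as were 59.5% of all genes, with a median difference of 0.38. Their means were 10.51 to 10.61 on TIC arrays and 9.64 to 10.52 on CD24- arrays. Luminal marker RNA was thus bright in both fractions, and whether it came from tumor or normal epithelium was not tested. Cd24a RNA was itself bright in the CD24- fraction (11.22 ± 0.67, SD, n = 4) beside 12.32 ± 0.21 on the TIC arrays. The CD24- array of N251 stood apart, with the lowest luminal mean (9.64), the highest pan-leukocyte mean (11.54) and the lowest weight (0.28) when limma weighted arrays by their fit.

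None of the 10 genes changed between fractions by the test used. Differences are TIC minus CD24- on the log2 scale, fitted with limma over all 19938 genes. The threshold for a call was an adjusted p (Benjamini-Hochberg) under 0.05. Of the 10 genes 0 were called, where 0.792% of all genes were. Blocking on tumor also called 0 of the 10, where it called 1.96% of all genes, and treating tumor as a random effect (the random block) called 0, where it called 5.2% of all genes. At an unadjusted p under 0.05, 1 of the 10 was higher (8.02% of all genes) and 0 lower (6.24%). In the blocked fit 2 were higher (14.2% of all genes) and 0 lower (8.08%). On average 5 of the 10 genes were higher and 5 lower in the TIC fraction, with a median difference of 0.07 beside 0.04 over all genes. Without tumor N251, 4 were higher and 6 lower, and the median turned to -0.01 beside 0.03 over all genes. Sfrp1, Wnt5a and Tcf7l2 were higher in all 4 tumors, and 0 of the 10 were lower in all 4. Of all genes 23.2% were higher and 11.8% lower in all 4. The 4 TIC and 4 CD24- values overlapped for each of the 10 genes, whereas they did not overlap for 9.87% of all genes. Unless stated, the SEs and intervals below come from the fit without the block, which does not use the pairing by tumor. With the block the SE was smaller for each of the 10 genes but Sfrp1 (0.33 beside 0.32). It was 0.086 beside 0.18 for Wnt4 and 0.069 beside 0.12 for Wnt7b.

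**Figure D1:**
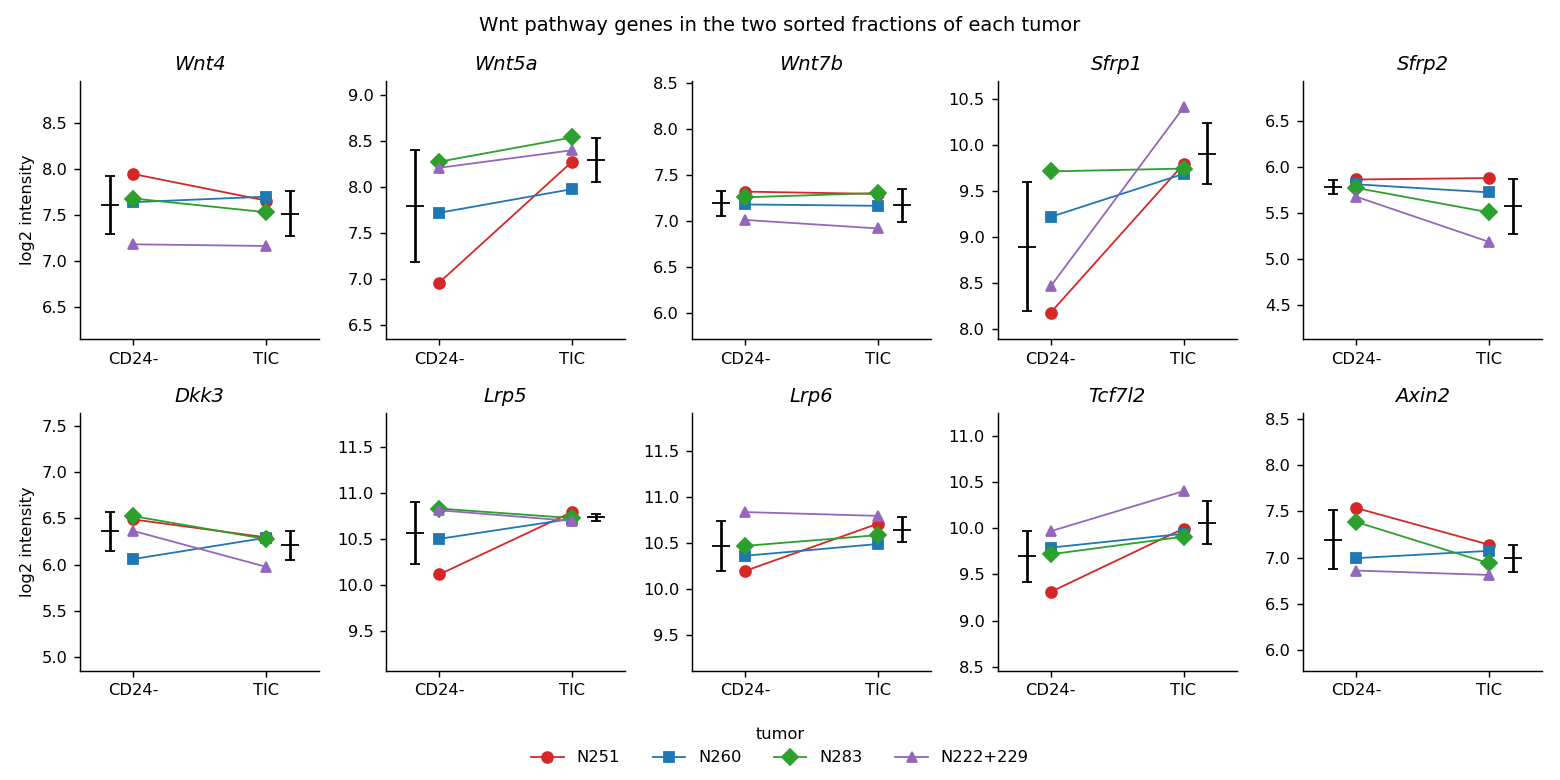
Log2 intensity of each gene (vertical axis, each panel spanning the same range) in the CD24- and TIC arrays, with a line joining the 2 arrays of a tumor and black bars giving the group mean ± SD (n = 4). Sfrp1 has the widest spread, from 8.18 to 10.41, and the lines of Wnt7b are nearly flat.

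Sfrp1 had the largest mean difference of the 10 genes. It encodes a secreted Frizzled-related protein that binds Wnts outside the cell. Its log2 intensity on the TIC arrays was 9.79 for N251, 9.69 for N260, 9.74 for N283 and 10.41 for the pool. On the CD24- arrays it was 8.18, 9.22, 9.71 and 8.47 in the same order. The TIC arrays of N251, N260 and N283 lay within a narrow range, with the pool above them. The CD24- arrays of N251 and the pool were low, and that of N283 reached the level of the TIC arrays, so the groups overlapped. The TIC arrays averaged 9.91 ± 0.34 (SD, n = 4), and the CD24- arrays 8.90 ± 0.70. The difference of 1.01 ± 0.32 (SE), a 2.02-fold higher mean level, was not called (limma adjusted p = 0.217, 0.170 with the tumor as a block and 0.0776 with a random block). With arrays weighted by their fit the difference was 0.59. The 95% interval of the unweighted fit without the block ran from 0.28 to 1.75. By tumor the difference was 1.61 (N251), 0.47 (N260), 0.03 (N283) and, for the pool, 1.94. Large differences were thus found in N251 and the pool, and almost none in N283.

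The other antagonist genes were dim. Sfrp2 encodes a second secreted Frizzled-related protein, known as a product of stromal cells. It lay below the lower quartile of all genes (6.05 to 6.28) on all 8 arrays. Its TIC values were 5.88, 5.73, 5.51 and 5.19 in N251, N260, N283 and the pool, and its CD24- values 5.87, 5.81, 5.77 and 5.68. The pool had the lowest value in each fraction, and the difference of -0.21 ± 0.15 (SE) was not called (adjusted p = 0.568, 95% interval -0.54 to 0.12). Without the pool it was -0.11.

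Dkk3, a divergent member of the Dickkopf family, was below the lower quartile on 2 of 8 arrays. Its TIC values were 6.29, 6.29, 6.28 and 5.97, with the pool again apart, and its CD24- values 6.49, 6.06, 6.52 and 6.36. Dkk3 was lower in the TIC fraction in 3 tumors and higher in N260 (0.23). Its difference was -0.15 ± 0.13 (SE; adjusted p = 0.660, 95% interval -0.45 to 0.14), and -0.28 without N260 or -0.071 without the pool. Signal over background was not available, so a true difference of a dim gene may be larger than its value, which was not tested. The difference of Sfrp1 thus had the opposite sign to those of Sfrp2 and Dkk3.

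Among the ligand genes, Wnt5a had the largest difference. Its protein is a ligand that signals mainly through ROR and RYK receptors to the cytoskeleton. Its TIC values were 8.28, 7.98, 8.54 and 8.40 in N251, N260, N283 and the pool, and its CD24- values 6.96, 7.72, 8.28 and 8.21. A single array, CD24- of N251, was low, and the other 7 lay between 7.72 and 8.54. The difference of 0.51 ± 0.28 (SE), 1.42-fold, was not called (adjusted p = 0.445, 0.225 with the block). It was 1.31 in N251 and 0.26, 0.26 and 0.19 in N260, N283 and the pool, and the mean without tumor N251 was 0.24.

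Wnt4 and Wnt7b had mean differences near 0. Wnt4 stood at 7.66, 7.70, 7.53 and 7.17 on the TIC arrays and at 7.95, 7.64, 7.68 and 7.18 on the CD24- arrays. The pool was low in both fractions, and the gap between tumors was wider than that between fractions. The difference was -0.10 ± 0.18 (SE; adjusted p = 0.872), with a 95% interval of -0.50 to 0.31. Without tumor N251 it was -0.036. A second, dimmer transcript cluster of Wnt4 differed by -0.06 ± 0.14 (SE) and went from -0.24 in N251 to 0.17 in the pool, so both clusters gave a mean close to 0.

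Wnt7b, a ligand known from branching epithelia, had TIC values of 7.29, 7.16, 7.30 and 6.92 and CD24- values of 7.32, 7.18, 7.26 and 7.01. Its largest difference within a tumor was -0.09, in the pool. The difference of -0.02 ± 0.12 (SE; adjusted p = 0.966) had a 95% interval of -0.29 to 0.24. Its sign turned with 3 of the scalings or weightings tried.

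**Figure D2:**
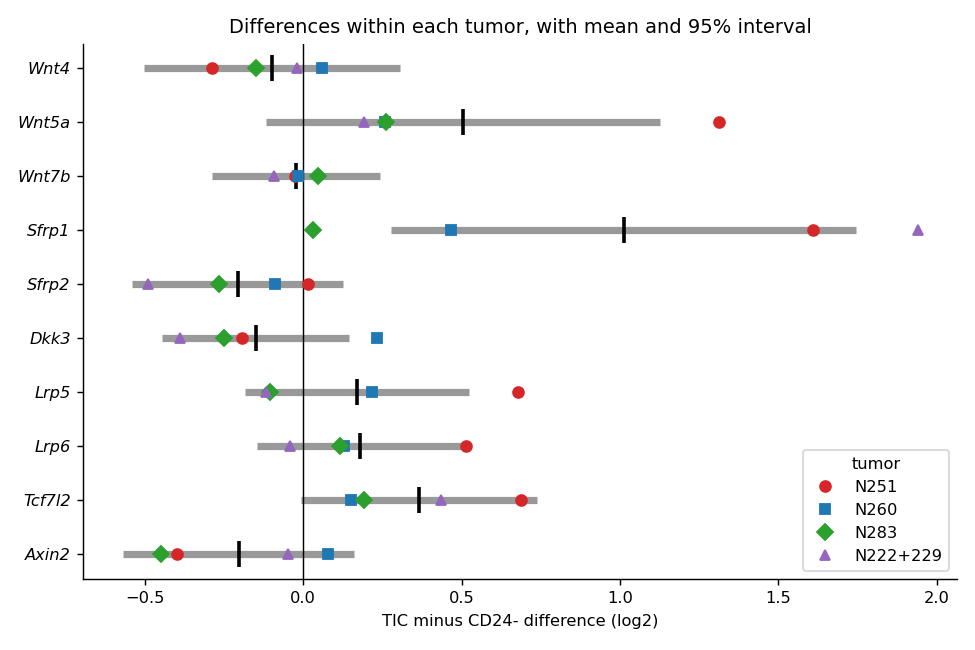
TIC minus CD24- difference on the log2 scale (horizontal axis) for each gene (vertical axis), with a symbol for each tumor, a black tick for the mean and a grey bar for limma's 95% interval without the block. The bar does not use the pairing by tumor. For Wnt5a, Lrp5, Lrp6 and Tcf7l2 the largest difference is that of N251, and for Sfrp1 that of the pool. Of all genes, 51.0% have their largest absolute difference in N251.

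The co-receptor genes Lrp5 and Lrp6 were above the upper quartile of all genes (8.86 to 9.01) on all 8 arrays. Both proteins are single-pass membrane receptors that pass the Wnt signal to axin. Lrp5 was nearly constant in the TIC fraction, at 10.79, 10.72, 10.73 and 10.70 in N251, N260, N283 and the pool (SD 0.042). Its CD24- values were 10.12, 10.50, 10.83 and 10.81, lowest in N251 and above the TIC value in N283 and the pool. The difference was 0.17 ± 0.16 (SE; adjusted p = 0.686), and without tumor N251 it was -0.00043.

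Lrp6 stood at 10.71, 10.49, 10.58 and 10.79 on the TIC arrays and at 10.19, 10.36, 10.47 and 10.83 on the CD24- arrays. The pool was the highest array in each fraction, and the difference was positive in 3 tumors. It averaged 0.18 ± 0.14 (SE; adjusted p = 0.630), with 0.51 in N251, and 0.068 without that tumor.

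Tcf7l2 and Axin2, the nuclear end of the pathway, differed in opposite directions on average. Tcf7l2, which encodes a DNA-binding partner of beta-catenin, had TIC values of 9.998, 9.94, 9.91 and 10.40 in N251, N260, N283 and the pool. Its CD24- values were 9.31, 9.79, 9.72 and 9.97. Each TIC array was above the CD24- array of its own tumor, but the CD24- array of the pool exceeded the TIC arrays of N260 and N283. The difference of 0.37 ± 0.16 (SE), 1.29-fold, was not called (limma adjusted p = 0.358, and 0.151 with the block). Without the block its p was the next smallest of the 10 after that of Sfrp1. With the block its p was the smallest (limma unadjusted p = 0.0175, beside 0.0243 for Sfrp1). The blocked 95% interval of Tcf7l2 ran from 0.09 to 0.64. Tumor by tumor the Tcf7l2 difference was 0.69, 0.15, 0.19 and 0.44 in the same order.

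Axin2, whose RNA is a common readout of beta-catenin activity, stood at 7.14, 7.07, 6.94 and 6.81 on the TIC arrays. On the CD24- arrays it was at 7.54, 6.99, 7.38 and 6.86. Its CD24- values of N251 and N283 were the highest of the 8, and the fractions of N260 and of the pool were close. The difference was -0.20 ± 0.16 (SE; adjusted p = 0.622, 95% interval -0.57 to 0.16), with tumor values of -0.40, 0.08, -0.45 and -0.05 in the same order. It was -0.12 without tumor N283, -0.089 without the CD24- array of N251 and -0.32 without the CD24- array of the pool.

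The wider pathway was read from 8 lists that together with the 10 genes hold 98 genes, of which 97 were measured. Tcf7 had no row of its own. Without the block 0 of the 97 were called in either direction (limma), though 9 were higher and 1 lower at the unadjusted threshold of 0.05, where 8.02% of all genes were higher and 6.24% lower. With the block 0 were called as well (1.96% of all genes). In that fit 15 were higher and 2 lower unadjusted, beside 14.2% and 8.08% of all genes. The random block called 1, Ccnd1, where it called 5.2% of all genes. On average 63 of the 97 were higher in the TIC fraction and 34 lower, with a median difference of 0.05 beside 0.04 over all genes. Leaving out tumor N251 gave 53 higher and 44 lower, with a median of 0.0083 beside 0.03. The arrays of the fractions did not overlap for 8 of the 97, beside 9.87% of all genes in either direction. All 8 were higher in the TIC fraction, and 5.19% of all genes were higher without overlap.

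**Figure D3:**
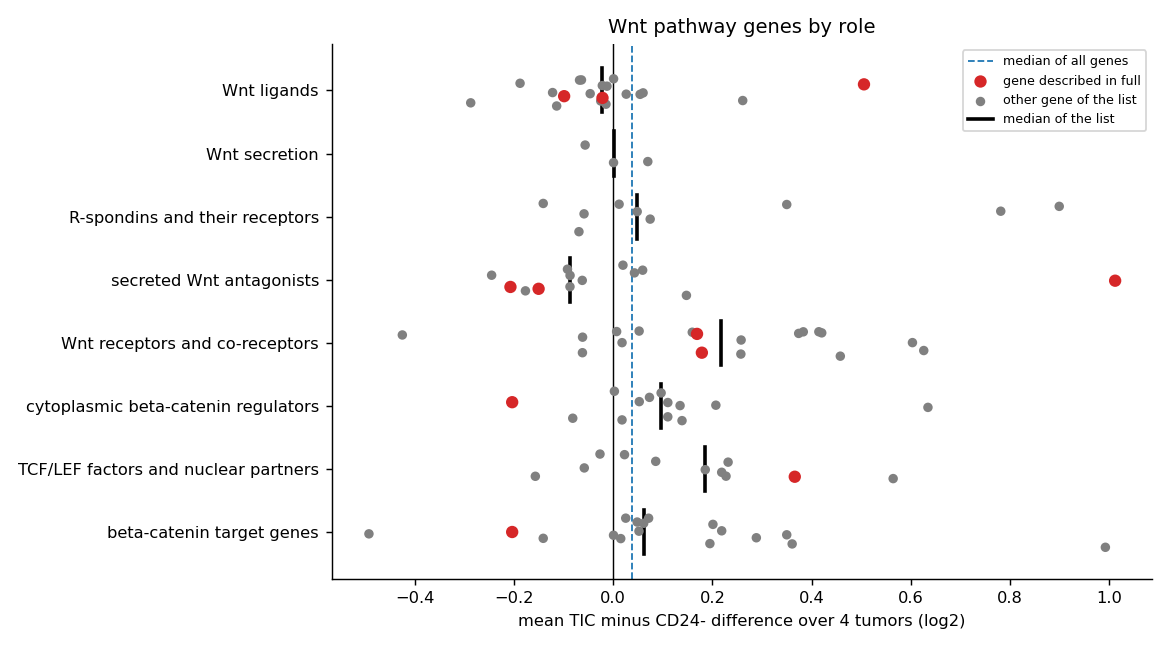
Mean TIC minus CD24- difference over 4 tumors on the log2 scale (horizontal axis) for the genes of each Wnt pathway list (rows), with the 10 genes described in full in red, other genes in grey, list medians as black ticks and the median of all genes as a dashed line. The receptor list has a median of 0.22 and the antagonist list one of -0.09, from which Sfrp1 stands apart at 1.01.

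Ligand genes were centred near 0. Of 19 measured ligand genes 6 were higher on average and 13 lower, with a median of -0.02, and all but Wnt5a lay between -0.29 and 0.26. Without N251, 4 were higher and 15 lower, with a median of -0.035. Wnt5b, a close relative of Wnt5a, was higher in all 4 tumors (0.26, adjusted p = 0.426), though by only 0.012 in N283. Wnt8b was lower in all 4 (-0.29, adjusted p = 0.463). Wnt8b was dim, at 5.20 to 6.07, where the lower quartiles of the arrays were 6.05 to 6.28. The 3 genes of Wnt processing and secretion had a median of 0.00. Wls, which carries Wnts to the cell surface, differed by -0.06 and Porcn, which attaches their lipid, by 0.07, and without N251 by -0.094 and 0.014. Of 13 antagonist genes 5 were higher and 8 lower, with a median of -0.09. Without N251, 3 were higher and 10 lower, with a median of -0.049. Sfrp4 differed by -0.25 and Frzb by 0.15 (adjusted p = 0.375 and 0.508), and Frzb by 0.090 without N251. Both were dim, Sfrp4 at 5.05 to 5.57 and Frzb at 5.18 to 5.54.

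None of the receptor genes was called, and most had a positive mean difference. Of 18 receptor and co-receptor genes 15 were higher on average, 7 of them in all 4 tumors, with a median of 0.22. Without N251, 12 of 18 were higher, with a median of 0.15, where 59.5% of all genes were higher with N251 and 58.3% without it. Ror1, a receptor of Wnt5a, stood at 7.78 to 8.13 on TIC arrays and at 7.34 to 7.64 on CD24- arrays, without overlap (0.37, adjusted p = 0.204). Fzd1, a Frizzled receptor gene, differed by 0.38 (adjusted p = 0.311), also without overlap. Without N251 these became 0.23 and 0.24. Of 9 genes of R-spondins and their receptors 6 were higher, with a median of 0.05. The R-spondin receptor genes Lgr6 and Lgr4 differed by 0.90 and 0.78 (adjusted p = 0.212 and 0.311) and were higher in all 4 tumors. Without N251 the Lgr4 difference was 0.40. Lgr6 also stands in the list of myoepithelial and basal markers, whose mean level was 7.05 to 7.37 on TIC arrays and 6.79 to 7.17 on CD24- arrays. Of those 10 basal markers 0 were called without the block (0.792% of all genes). On average 8 were higher and 2 lower, with a median difference of 0.07. Krt5, Krt14 and Acta2 differed by 0.03, -0.02 and 0.02, and the largest differences were those of Oxtr and Lgr6. Krt5 was dim, at 5.98 to 6.49, and Krt14 stood at 6.21 to 6.84, where the lower quartiles of the arrays were 6.05 to 6.28. Oxtr, the oxytocin receptor gene, was higher in all 4 tumors by a mean of 1.21 (limma adjusted p = 0.158). It was the 1 basal marker called with the block (adjusted p = 0.0457, 1.96% of all genes) and with the random block (adjusted p = 0.0261, 5.2% of all genes).

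None of the regulators of beta-catenin or the nuclear factors was called. Of 13 cytoplasmic regulators 11 were higher on average, with a median of 0.10, and of 0.057 without N251. Ctnnb1, the gene of beta-catenin itself, differed by 0.21 and was higher in all 4 tumors (adjusted p = 0.408). Ctnnbip1, whose product blocks beta-catenin from binding TCF, differed by 0.63 (adjusted p = 0.201), without overlap. Of 11 measured TCF/LEF factors and partners 8 were higher, with a median of 0.19, and of 0.05 without N251. Tcf7l1, mostly a repressor, differed by 0.56 (adjusted p = 0.193) and the corepressor gene Tle2 by 0.23 (adjusted p = 0.379), and by 0.35 and 0.13 without N251.

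Among 17 measured target genes of beta-catenin 14 were higher on average and 3 lower, with a median of 0.06. Without N251 12 were higher and 5 lower. Ccnd1, the gene of cyclin D1, stood at 11.92, 12.11, 11.79 and 11.60 on the TIC arrays of N251, N260, N283 and the pool and at 10.09, 11.59, 11.12 and 10.64 on the CD24- arrays. Every TIC array was above every CD24- array, the nearest being 11.60 and 11.59. The difference of 0.99 ± 0.29 (SE), 1.99-fold, was not called (adjusted p = 0.177, 0.0928 with the block), and was called with the random block (adjusted p = 0.0410). Cyclin D1 also answers to growth factor receptors. The 9 measured cell-cycle markers were each higher in all 4 tumors, as were 23.2% of all genes. Their list means were 8.35 to 9.69 on TIC and 7.26 to 8.80 on CD24- arrays. Without the block 0 of the 9 were called, beside 0.792% of all genes. The block called 8 (1.96% of all genes) and the random block 6 (5.2%) of these markers. Their part in the Ccnd1 difference was not tested. Procr, a receptor gene used as a mammary stem cell marker, was lower in all 4 tumors (-0.49, adjusted p = 0.340, and -0.30 without N251). In the pool its difference was only -0.0057.

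The CD24- arrays varied more than the TIC arrays for 8 of the 10 genes, as for 65.3% of all genes. Sfrp1, Wnt5a, Lrp5, Lrp6 and Tcf7l2 each had their lowest CD24- value in N251. These 5 were singled out after their values were seen. Of the others, Sfrp2, Wnt4, Wnt7b and Axin2 were lowest in the pool and Dkk3 in N260. Wnt4, Wnt5a, Lrp5, Lrp6 and Tcf7l2, 5 of the 10 genes, had their largest absolute difference in N251, as did 51.0% of all genes. The luminal mean of the CD24- arrays was, tumor by tumor in the usual order, 9.64, 10.29, 10.52 and 10.47, and the pan-leukocyte mean was 11.54, 10.74, 9.73 and 8.95. For Wnt5a and Lrp5 the order of the 4 CD24- arrays was that of the luminal mean. Sfrp1 departed from it in the pool, where it was low (8.47) beside a luminal mean near that of N283. Lrp6 was highest in the pool (10.83), and so was Tcf7l2 (9.97), which was also higher in N260 (9.79) than in N283 (9.72). The luminal difference between fractions was 0.97, 0.31, 0.05 and 0.04 in that order, while that of Sfrp1 in the pool was 1.94. Axin2 had its highest CD24- value in N251 (7.54), followed by N283 (7.38), and its lowest in the pool (6.86). In sorted bulk RNA, fewer cells of a type and less RNA per cell cannot be told apart, and the part of cell makeup in these differences was not tested.

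**Figure D4:**
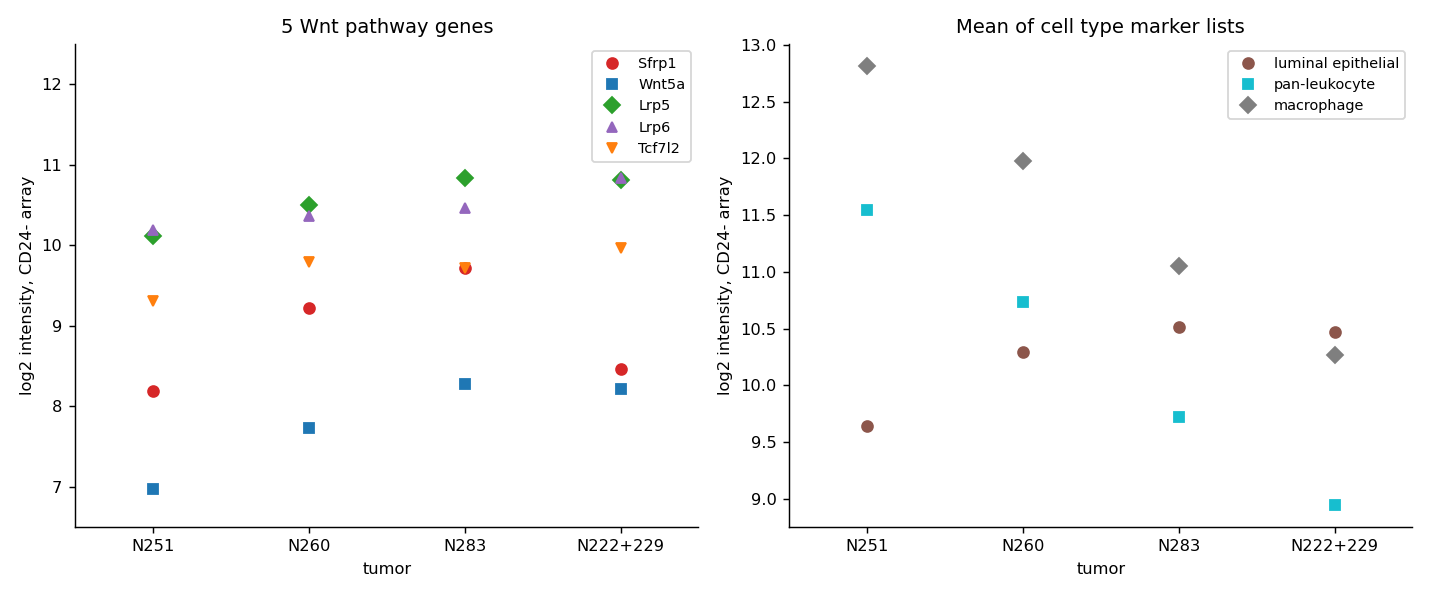
Log2 intensity on the 4 CD24- arrays (vertical axes) by tumor (horizontal axis), for 5 Wnt pathway genes on the left and for the means of the luminal epithelial, pan-leukocyte and macrophage marker lists on the right. The array of N251 has the lowest value of each of the 5 genes and of the luminal mean (9.64), and the highest pan-leukocyte mean (11.54). The 5 genes were chosen after their values were seen.

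The differences most like those of Sfrp1 belonged to other genes that were high in N251 and the pool. Likeness was measured as the root mean square distance between the 4 tumor differences, over 18709 other genes. The nearest were Lmcd1 (0.21), Peg3 (0.21), Rhoj (0.22), A2m (0.24) and Slc5a8 (0.27), none of them called. Lmcd1, a transcriptional cofactor gene, differed by 1.60, 0.62, 0.35 and 1.72 in N251, N260, N283 and the pool. Peg3, an imprinted zinc finger gene, differed by 1.35, 0.69, 0.20 and 1.75. Wnt5a was added to this search after its values were seen. Its nearest gene was Daam1, a formin gene of actin assembly, at a distance of 0.045 and with 1.28, 0.33, 0.29 and 0.22 in the same order, followed by Mthfd2l (0.052). With 4 differences a gene, closeness is a description only.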

How the data were processed

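The authors deposited log2 intensities, 35556 rows on 8 arrays. RMA and Partek are the tools listed in the submitters' processing notes, without versions, settings or build. Rows with exactly 1 symbol in the platform annotation (21789) were kept, 21698 of them matched by gene identifier to a RefSeq table of GRCm38.p6, with 0 renamed. The brightest row stood for a gene. Of the 10 genes only Wnt4 had 2 rows. Fits used limma 3.58.1 in R 4.3.3 (lmFit, eBayes) on all arrays without a block. Titles name tumors N251 and N260 where the growth protocol has N250 and N261, and the titles were followed. Per the labels, each tumor gave both fractions, and paired deviations from group means correlated at 0.30 to 0.56. The number of arrays limits the precision.

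The 10 genes, the lists and the rule for named genes were chosen with earlier results of these data known. Beside the 10 genes, the rule named in each Wnt list every called gene, or otherwise the 2 further genes with the smallest p, and the 5 genes nearest to Sfrp1; Cd24a, Oxtr and the genes nearest to Wnt5a were taken outside it, after values were seen. Simulated data for this comparison had 10 draws, 200 of 19938 genes changed and a tumor share of variance of 0.4. There the fit without the block called 73.3% of genes changed by 1 on the log2 scale and 95.9% of those changed by 2. Of its calls 1.27% were false. The blocked fit called 78.2% and 95.7%, with 4.78% of calls false. Weights of the real arrays ran from 0.28 to 2.40, so these shares need not hold for them. Alternatives covered blocks, filters on dim genes, eBayes settings, array weights, scalings, row choice, thresholds and left-out arrays or tumors.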

Additional observations from a re-analysis of the deposited data

Results flagged for a closer look

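A single array far from the other 3 of its group was found in 3 of 52 groups of 4 values, about what chance gives (1 in 20). In the TIC fraction of the pool of N222 and N229, Sfrp1 was at 10.41 (others 9.687 to 9.792) and Dkk3 at 5.974 (others 6.276 to 6.294). In the CD24- fraction of N283 the mean of the myoepithelial and basal markers was 7.17 (others 6.792 to 6.854).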

How the results depend on the processing

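Of the 10 genes, 0 were called under each of the 29 alternatives, and 0 Wnt list genes were lower by the test in any. Sfrp2, Dkk3, Wnt7b and Axin2 were tested in fewer, since they fell below a filter on dim genes. Ccnd1 was the 1 Wnt list gene called with a random block and, likewise 1, with the replicate block and no N251. The Sfrp1 adjusted p ran from 0.0739 (without the CD24- array of N283) to 0.603 (without tumor N260). Wnt7b turned to 0.026 with array weights and with median centring, to 0.022 with quantile normalization and to 0.0021 with the replicate block and no pool. Leaving out an array or tumor gave Wnt7b -0.082 to 0.062, Wnt4 -0.24 to 0.017 and Lrp5 -0.00043 to 0.26, and Lrp5 was also -0.00043 with the replicate block and no N251. Over all genes, 10 higher and 148 lower became 172 and 218 with the replicate block, 191 and 778 with array weights, 430 and 606 with a random block, and 0 and 58 at an adjusted p under 0.01. The higher count was 2 with all rows, 6 after cyclic loess, 19 after median centring and 5 when only genes at least as bright as the median gene were tested. Higher and lower counts with the replicate block were 360 and 480 without N251, 74 and 299 without the pool, and 0 and 0 without N260 or N283, and these other 3 left-out tumors were added after seeing the data. Leaving out an array or tumor without the block gave 0 to 46 higher and 8 to 583 lower genes. The cause of these changes was not tested. Signal over background was not available, which limits Sfrp2 and Dkk3 most among the 10 genes, and also Wnt8b, Sfrp4, Frzb and Krt5.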
